A study of Mus musculus with 11 samples.

Results

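The large Maf transcription factors analysed here are the 3 genes Mafa, Maf and Nrl. Their regions were taken by gene symbol from the deposited tables, with promoter regions and the other (distal) regions kept apart. They account for 3 of 31479 regions of H3K27ac, a histone mark of active promoters and enhancers. They account for 10 of 20086 regions of H3K27me3, the mark that Polycomb complexes place at silenced genes, and for 3 of 22332 promoter windows scored for binding of the transcription factor ISL1. All of these values come from CUT&Tag, in which an antibody directs a transposase to cut beside the bound protein or mark.

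Both histone marks were measured at P9 (postnatal day 9) in Isl1CKO mice (Isl1loxP/loxP;Neurod1-cre), which lose Isl1 in cells that express the Cre driver, and in Control mice (Isl1loxP/+;Neurod1-cre). The Control mice carry the same Neurod1-cre transgene and 1 floxed Isl1 allele, so they are heterozygous after recombination and not wild type. Both genotypes also carried the tdTomato Cre reporter (Ai14), on which pancreatic endocrine cells were sorted, and male and female littermates were used on a C57BL/6 background. Each genotype and mark had 2 libraries, each from a separate pool of 3 to 4 pancreases and about 20000 cells. ISL1 binding was measured in Control cells alone, at P9 in 1 library and at E14.5, an embryonic stage, in 2 libraries that share a single deposited column.

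Large Maf proteins are basic leucine zipper factors that carry an activation domain and bind the Maf recognition element as dimers. Mafa drives insulin transcription and marks mature beta cells of the islet. Maf (c-Maf) acts in the lens, in lymphocytes and in macrophages, and Nrl directs the rod photoreceptor fate in the retina. ISL1 is a LIM-homeodomain factor required for islet cell maturation, and Mafa is a known target of it in beta cells.

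Neighbouring H3K27me3 regions of the Nrl promoter differed in opposite directions between the genotypes, and edgeR called neither. The RefSeq promoters used here hold Nrl but not Mafa or Maf, so the promoters of Mafa and Maf were not searched. The Nrl promoter sequence (GRCm38.p6, chr14:55524203-55524502, minus strand) is shown. Its start lies 729 bp inside the outer end of the gene model. Capitals mark the 50 bases from the gene start onward, and the 250 bases before them are in lower case.
Nrl promoter: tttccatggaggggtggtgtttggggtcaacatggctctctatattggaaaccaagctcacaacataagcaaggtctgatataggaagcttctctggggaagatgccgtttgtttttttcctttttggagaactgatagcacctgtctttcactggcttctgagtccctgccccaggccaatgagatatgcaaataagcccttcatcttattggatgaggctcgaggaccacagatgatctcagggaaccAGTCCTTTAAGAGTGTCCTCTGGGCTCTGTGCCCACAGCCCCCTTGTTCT
The Maf half-site TGCTGAC, its shorter core TGCTGA, the LIM-homeodomain motif CTAATG and its core TAAT were searched on both strands, with TGCTGAC holding TGCTGA and CTAATG holding TAAT. Nrl had 0 matches to each of the 4 in this window. Of 32851 RefSeq promoter windows of this length, 4.67% held TGCTGAC, 19.5% held TGCTGA, 7.36% held CTAATG and 58.0% held TAAT.

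Summed over regions, H3K27ac counts came to 681047 and 1441926 in Isl1CKO, against 1307049 and 1815511 in Control. H3K27me3 counts came to 2276887 and 2260039 in Isl1CKO, against 1202276 and 1750706 in Control. For H3K27ac, Control replicate 2 was unlike the rest, with correlations of log2 values across regions of 0.473 to 0.517 with the other 3 libraries, which were at 0.696 to 0.738 among themselves. The deleted gene was read first: the Isl1 promoter measured 45.6 and 45.7 CPM of H3K27ac in Isl1CKO, against 63.3 and 42.8 CPM in Control. Of its 6 other H3K27ac regions, the intronic one had the lowest log2 fold change, at -2.05 (SE 1.03, edgeR adjusted p = 0.865). It measured 7.61 and 2.81 CPM in Isl1CKO, from 5 and 4 counts, against 19.3 and 21.9 CPM in Control. The rest ran from -0.99 to 0.47, with signs both ways. CPM are counts brought to a common library size with TMM factors. The part of Isl1 that Cre removes is not given in the labels, and these values are no check of it. Nothing in the labels says whether replicate pools came from separate litters, so p-values measure the spread between these pools.

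**Figure D1:**
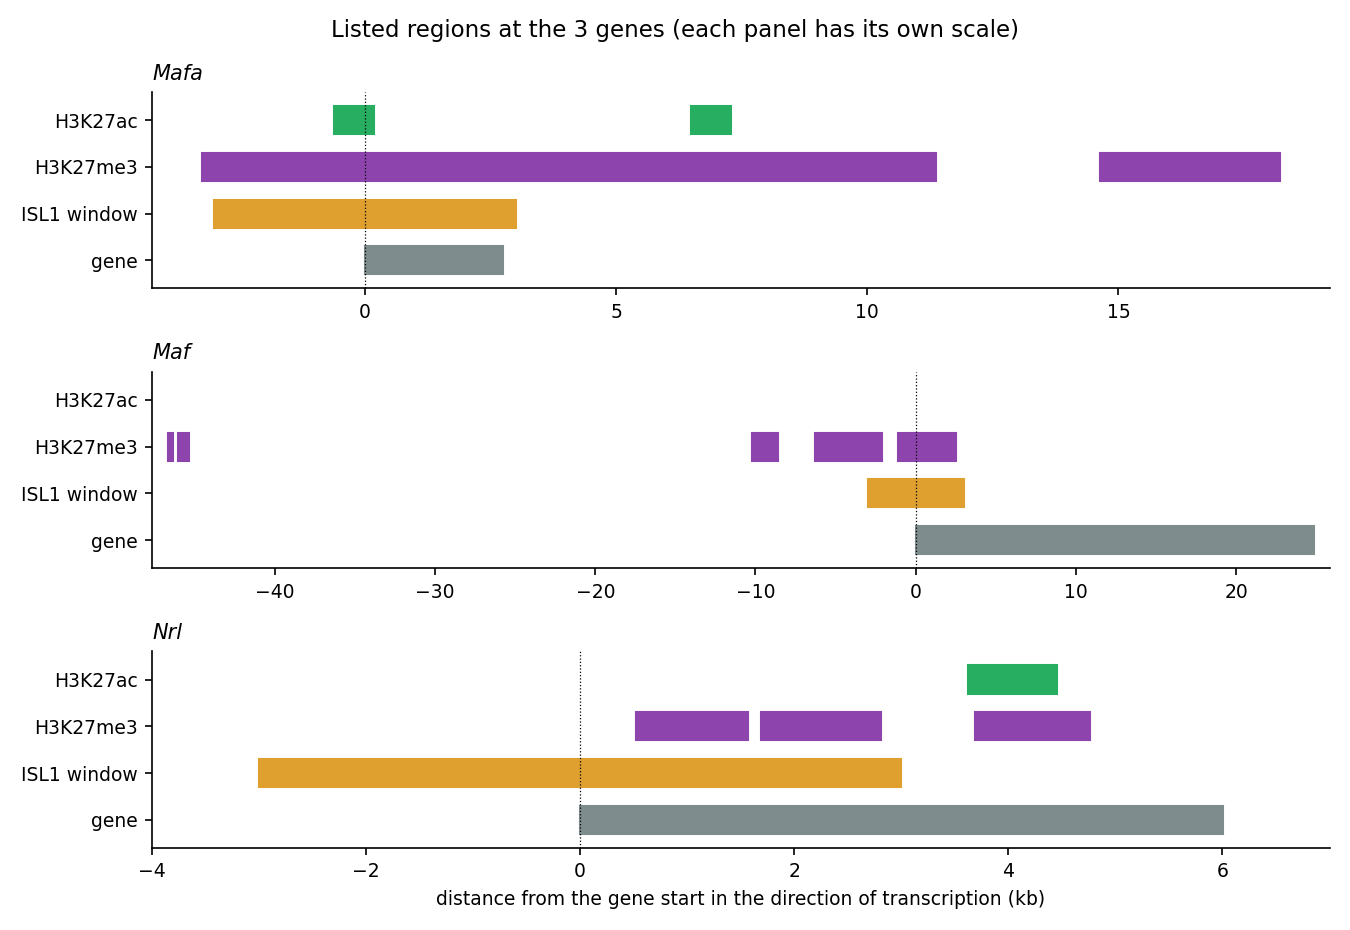
Positions of the listed H3K27ac regions, H3K27me3 regions and ISL1 promoter windows at Mafa, Maf and Nrl, as distance in kb from the gene start along the direction of transcription, with the gene body below. Both H3K27ac regions of Mafa lie inside its 14618 bp H3K27me3 region, Maf has no listed H3K27ac region, and the H3K27ac region of Nrl lies inside its gene body.

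The regions lay differently at the 3 genes, as the map by distance from the gene start shows. Mafa (ENSMUSG00000047591, chromosome 15, 75617339 to 75620077 on GRCm39, minus strand) had 1 promoter and 1 distal region of each mark. Its H3K27me3 promoter region spanned 14618 bp, which was the 118th widest of the 20086 and the 146th by summed counts, and covered the whole gene. Maf (ENSMUSG00000055435, chromosome 8, 116409681 to 116434533, minus strand) had 5 H3K27me3 regions, 2 at the promoter and 3 upstream, and no H3K27ac region was listed for it. Nrl (ENSMUSG00000040632, chromosome 14, 55756435 to 55762438, minus strand) had 2 H3K27me3 promoter regions, and a region of each mark annotated in a 3′ UTR.

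Each of the 3 H3K27ac regions shared bases with an H3K27me3 region of the same gene. Both Mafa regions lay wholly inside the Mafa H3K27me3 domain, and the Nrl region shared 772 bp, or 92.1% of its length. Over the whole table, 6.86% of H3K27ac regions shared at least 1 base with an H3K27me3 region. The marks were measured in separate libraries of sorted cells, so the overlap does not say whether the same cells carry both. Throughout, fewer cells of a type and less of a mark in each cell cannot be told apart in these pooled samples.

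The first comparison asked how H3K27ac at these genes differed between Isl1CKO and Control cells at P9. At Mafa the mark measured lower in both Isl1CKO libraries than in either Control library, at the promoter and at the distal region. At Nrl the groups overlapped. Regions were called at an adjusted p below 0.05 by edgeR's quasi-likelihood test, with Benjamini-Hochberg adjustment over the 30036 regions tested. It called 0 of the 3 members and 0% of all regions tested. DESeq2 gave 2 of the 3 an adjusted p, leaving out the distal Mafa region, and called 0 of these 2 and 0.102% of all regions with one. All 3 measured lower in Isl1CKO, as 51.4% of all tested regions did, with a median log2 fold change of -1.70, against -0.03 over all tested regions.

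The Mafa promoter region (chromosome 15, 75619911 to 75620704), which covers the gene start, held 10 and 13 counts in Isl1CKO, against 38 and 87 in Control. Scaled, that is 15.2 and 9.14 CPM in Isl1CKO, against 29.3 and 47.7 CPM in Control. Every Isl1CKO library was thus below every Control library. The fitted log2 fold change was -1.70 (SE 0.69), with an edgeR unadjusted p of 0.0261 and an adjusted p of 0.850. Per length, the level was 15.3 CPM per kb in Isl1CKO, above 19.1% of all promoter regions there, and 48.5 CPM per kb in Control, above 91.7% of them. On the library sizes that the authors' fold changes imply, the log2 fold change was -0.92, where the median of all H3K27ac regions is 0.61.

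The distal Mafa region (chromosome 15, 75612792 to 75613594) begins 6483 bp downstream of the gene start, past the end of the gene. It held 1 and 0 counts in Isl1CKO, against 21 and 36 in Control. Isl1CKO was almost empty here while both Control libraries carried the mark, at 16.2 and 19.7 CPM. The ratio of scaled counts, Isl1CKO over Control, was 0.0263 with an exact 95% counting interval of 0.000655 to 0.153, which covers counting error only. A count of 0 in the library of Isl1CKO replicate 2 allows a level of up to 2.11 CPM. The fitted log2 fold change was -4.82 (SE 1.61), with an edgeR unadjusted p of 0.00874 and an adjusted p of 0.846.

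Of the 3 regions, 2 had an unadjusted p below 0.05, a threshold that 5.83% of all tested regions passed. Likewise in 2 the highest Isl1CKO library was below the lowest Control library, as in 19.4% of all tested regions, while the opposite held in 0 of the 3 and in 18.1% of all. These are the 2 Mafa regions. In the authors' deposited table both were called lower, at log2 fold changes of -1.26 (adjusted p = 0.0167) for the promoter and -4.62 (adjusted p = 5.26e-06) for the distal region. The authors' deposited table called 37% of all H3K27ac regions, 9.25% lower and 27.8% higher.

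Libraries moved the Mafa values without turning their direction. Leaving out Control replicate 2, the library unlike the rest, the log2 fold change was -1.31 at the promoter and -4.66 at the distal region. Without Isl1CKO replicate 1, the distal value was -7.77, a fit against a single library at 0 counts and no bound. When counts were summed per gene and region class, each Mafa sum held 1 region, so it repeats the region above and adds no counts. The distal sum had an edgeR adjusted p of 0.549 with all 4 libraries. Of 19348 gene sums, 0% passed with all 4 libraries, and 7.07% had an unadjusted p below 0.05. Without Control replicate 1, the log2 fold change of the distal sum was -5.02. The single Control library of that setting is the one unlike the rest.

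The H3K27ac region of Nrl in its 3′ UTR (chromosome 14, 55757980 to 55758817) held 6 and 37 counts in Isl1CKO, against 24 and 50 in Control. At 9.13 and 26.0 CPM in Isl1CKO and 18.5 and 27.4 CPM in Control, the groups overlapped. The log2 fold change was -0.34 (SE 0.75), with an edgeR adjusted p of 0.967. Its sign turned without Isl1CKO replicate 1, at 0.17.

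**Figure D2:**
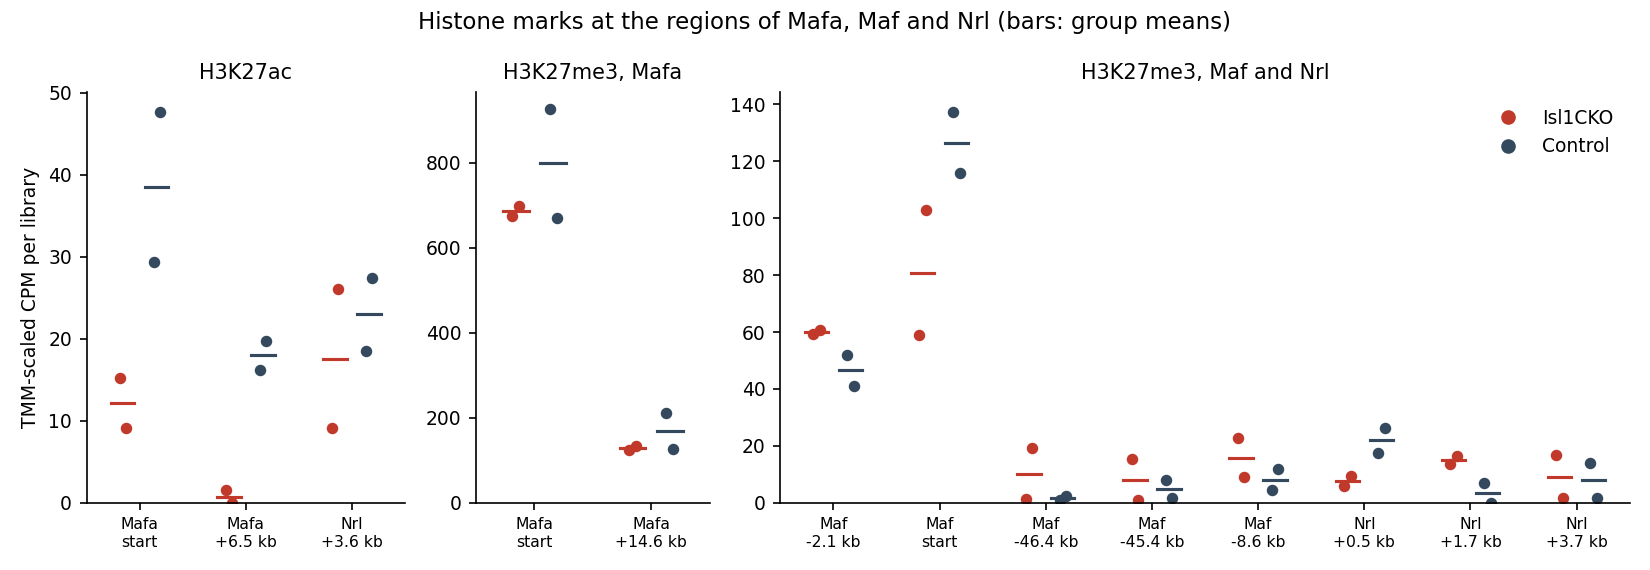
TMM-scaled CPM of each library at the 3 H3K27ac and 10 H3K27me3 regions of the 3 genes, Isl1CKO in red and Control in dark blue, with bars at the group means of 2 libraries and regions labelled by distance from the gene start. For H3K27ac the Isl1CKO points lie below the Control points at both Mafa regions; for H3K27me3 the groups overlap at both Mafa regions.

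The second comparison asked the same of H3K27me3. Mafa had a strong domain in both genotypes, and the groups overlapped there. At the Maf gene start and at the Nrl promoter region nearer the start, Isl1CKO measured lower than Control without overlap. At the other promoter region of each of these genes, Isl1CKO measured higher without overlap. The edgeR test called 0 of the 9 tested member regions, and 0% of the 19434 regions tested. DESeq2 gave an adjusted p to 2 of the 10, both at Mafa, and called 0 of them, against 8.24% of all regions with one. The other 8 were not open to a DESeq2 call.

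The Mafa domain (chromosome 15, 75608703 to 75623320) held 1581 and 1643 counts in Isl1CKO, against 1051 and 1142 in Control. Scaled, it measured 676 and 698 CPM in Isl1CKO, against 926 and 671 CPM in Control. The Isl1CKO values lay between the 2 Control values. The fitted log2 difference was -0.22 (SE 0.16, edgeR adjusted p = 1.00), and it was 0.034 once Control replicate 1 was left out. The distal Mafa region (chromosome 15, 75601870 to 75605443), 14634 bp downstream of the gene start, measured 125 and 134 CPM in Isl1CKO, against 211 and 126 CPM in Control. Its fitted value was -0.37 (SE 0.31), and 0.037 once Control replicate 1 was left out. Per length, it stood at 36.2 CPM per kb in Isl1CKO, above 98.3% of all distal H3K27me3 regions, and at 47.1 in Control, above 99.3%.

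The Maf region over the gene start (chromosome 8, 116432012 to 116435623) held 138 and 242 counts in Isl1CKO, against 156 and 197 in Control. It measured 59.0 and 103 CPM in Isl1CKO, against 137 and 116 CPM in Control, so the groups did not overlap. Its log2 fold change was -0.64 (SE 0.37, edgeR adjusted p = 1.00). The second Maf promoter region (chromosome 8, 116436613 to 116440806), at -2080 bp from the start, went the other way. There the libraries measured 59.4 and 60.8 CPM in Isl1CKO, against 52.0 and 41.1 CPM in Control, for a log2 fold change of 0.37 (SE 0.46), or -0.20 on the authors' implied sizes. Summed over both, the Maf promoter measured 142 ± 32.9 CPM in Isl1CKO and 170 ± 22.0 CPM in Control (SD, n = 2 each), for a log2 fold change of -0.26 (SE 0.30).

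The 3 upstream Maf regions held few counts. The region at -8608 bp (chromosome 8, 116443141 to 116444729) held 53 and 21 counts in Isl1CKO, against 5 and 20 in Control. The region at -45396 bp held 36 and 2 counts in Isl1CKO, against 9 and 3 in Control. In both, the groups overlapped. The region at -46387 bp held 3 and 45 counts in Isl1CKO, against 1 and 4 in Control, and was not tested because it failed the filter on low counts. It spans 291 bp, and per length it stood at 35.1 CPM per kb in Isl1CKO, mostly from 1 library, and at 5.55 in Control. Summed, they held 92 and 68 counts in Isl1CKO, against 15 and 27 in Control. That is 34.4 ± 7.30 CPM in Isl1CKO and 14.3 ± 1.90 CPM in Control (SD, n = 2 each). The sums did not overlap, although the groups overlapped in each of the 3 regions. Among all tested H3K27me3 regions, Isl1CKO measured higher without overlap in 18.7%, and this share was not computed for gene sums. The log2 fold change of the sum was 1.26 (SE 0.65), with an edgeR adjusted p of 0.912. Of 9987 H3K27me3 gene sums 0% were called, and 5.57% had an unadjusted p below 0.05.

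Nrl regions held few counts as well. Its promoter region nearer the start (chromosome 14, 55760869 to 55761917), 521 bp into the gene, held 14 and 22 counts in Isl1CKO, against 20 and 45 in Control. It measured 5.98 and 9.35 CPM in Isl1CKO, against 17.6 and 26.4 CPM in Control, for a log2 fold change of -1.52 (SE 0.88). The next region (chromosome 14, 55759629 to 55760746), 1692 bp into the gene, held 32 and 39 counts in Isl1CKO, against 8 and 0 in Control. Here Isl1CKO was the higher group, with a log2 fold change of 2.15 (SE 1.49), or 1.09 without Control replicate 2. Without Control replicate 1 it was 8.02, a fit against a single library at 0 counts and no bound. Summed, the Nrl promoter measured 23.0 ± 4.57 CPM in Isl1CKO and 25.2 ± 1.33 CPM in Control (SD, n = 2 each), a log2 fold change of -0.13 (SE 0.64). The 3′ UTR region, which shares bases with the H3K27ac region of Nrl, held 39 and 4 counts in Isl1CKO, against 16 and 3 in Control. In both genotypes, replicate 1 was the high library there.

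**Figure D3:**
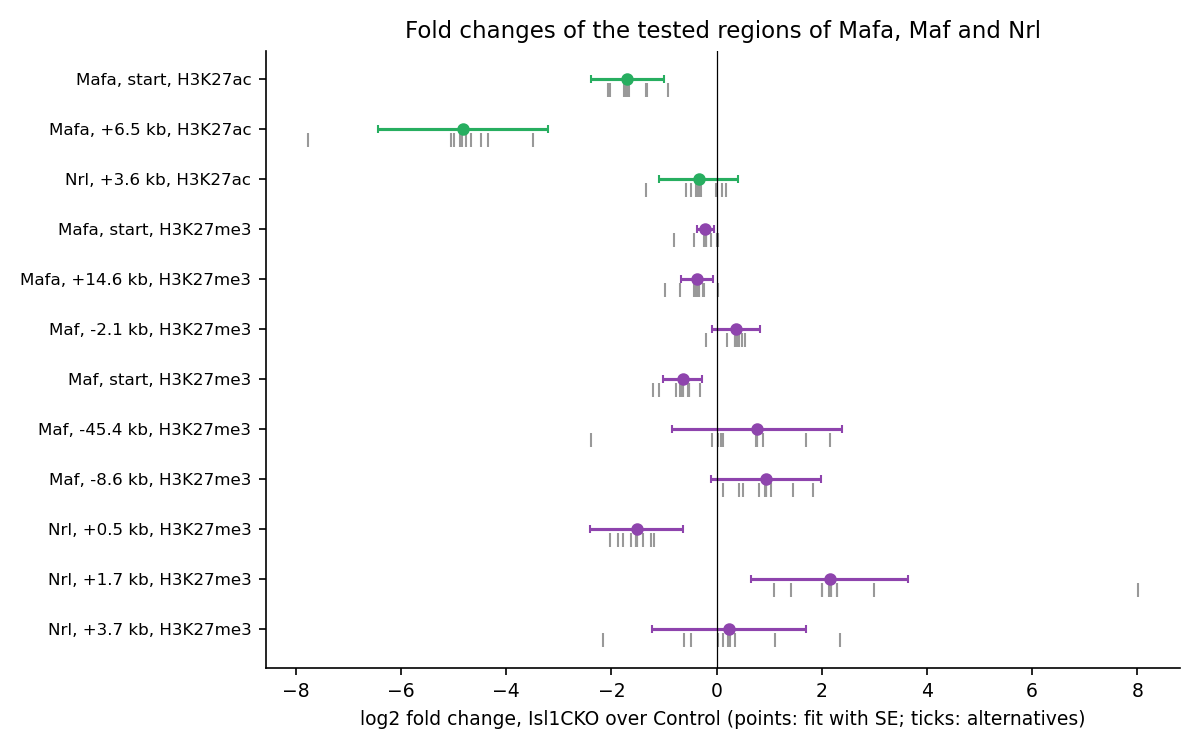
Fitted log2 fold changes of Isl1CKO over Control at the 12 tested regions, with standard errors (green for H3K27ac, purple for H3K27me3), and the values under the 11 alternatives as grey ticks. Both Mafa H3K27ac regions stay below 0 under each alternative, while the Mafa H3K27me3 domain, at -0.22, ranges from -0.81 to 0.034.

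Per length, the H3K27me3 promoter region with the most counts of each gene followed the same order in both genotypes, from Mafa over Maf to Nrl. In Isl1CKO the libraries measured 46.2 and 47.8 CPM per kb at Mafa, 16.3 and 28.5 at Maf and 5.70 and 8.91 at Nrl. In Control they measured 63.4 and 45.9 CPM per kb at Mafa, 38.1 and 32.0 at Maf and 16.8 and 25.2 at Nrl. No neighbours in this order overlapped within a genotype, and the order was not tested.

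Over the 9 tested H3K27me3 regions, 4 measured lower and 5 higher in Isl1CKO, and 47.5% of all tested regions measured lower. The members' median was 0.24 on the log2 scale, against 0.05 over all tested regions. Isl1CKO measured lower without overlap in 2, as in 16.7% of all tested regions, and higher without overlap in 2, as in 18.7%. An unadjusted p below 0.05 was reached by 0 of the 9, against 4.34% of all tested regions. The authors' deposited table called 6 of the 10 members, 4 lower and 2 higher, where it called 38.8% of all H3K27me3 regions (29.6% lower and 9.17% higher). In the authors' deposited table, the Mafa domain stood at a log2 fold change of -0.81 (adjusted p = 0.0198) and the Maf gene start at -1.20 (adjusted p = 0.000898). The authors' deposited table also called the distal Mafa region (-0.97) and the Nrl region nearer the start (-2.02) lower. In the authors' deposited table the next Nrl promoter region (1.84) and the Maf region at -46387 bp (2.06) were called higher. On the library sizes that the authors' deposited table implies, the median of all H3K27me3 regions was -0.51.

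The third comparison set ISL1 at the promoter windows of the 3 genes at P9 beside E14.5, in Control cells. Each window spans 6000 bp around the gene start and has a whole number per stage, whose unit the header does not state. No test was possible, because each stage has a single column.

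The Mafa window (chromosome 15, 75617078 to 75623077) was listed at 0 at P9 and at 6 at E14.5. The value at E14.5 was reached or passed by 1.05% of all windows, and by 2.78% of those with a value of at least 1. The window covers the Mafa H3K27ac promoter region and lies inside the H3K27me3 domain, while the distal H3K27ac region lies outside it. Most windows with a high E14.5 value were listed at 0 at P9. Of the 460 windows with at least 5 at E14.5, 80.9% were listed at 0 at P9, and of the 122 windows at 6, 80.3% were. The P9 values over all windows sum to 2255, against 16668 at E14.5.

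The Maf window (chromosome 8, 116431534 to 116437533) had a value of 1 at P9 and 1 at E14.5. A value of at least 1 was reached by 8.86% of all windows at P9 and by 37.7% at E14.5. The Nrl window (chromosome 14, 55759439 to 55765438) was listed at 0 at both stages, and both Nrl H3K27me3 promoter regions lie inside it.

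**Figure D4:**
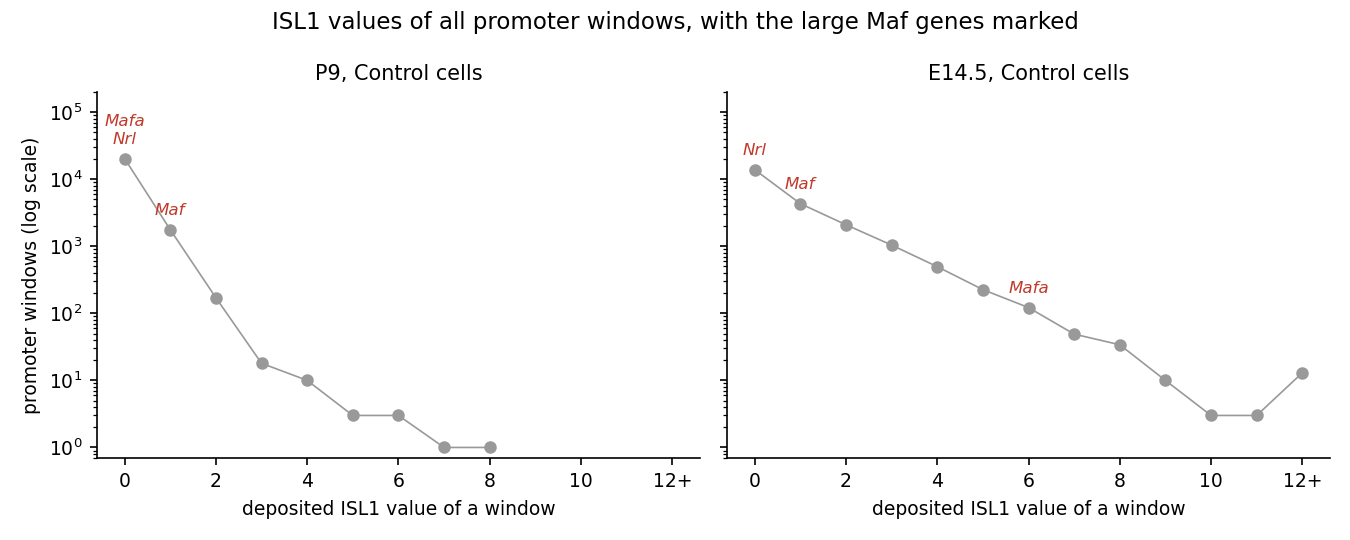
Number of promoter windows (log scale) at each deposited ISL1 value in Control cells at P9 (left) and E14.5 (right), with values of 12 and more joined. Mafa stands at 0 at P9 and at 6 at E14.5, Maf at 1 at both stages and Nrl at 0 at both.

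Genes around the large Maf factors were read from lists of genes, each gene by its promoter region with the most counts, or its strongest region where it had no promoter region. For H3K27ac, the beta cell genes tied to MAFA, many of them genes of insulin secretion, measured lower in Isl1CKO at 11 of 13 and higher at 2. Their median was -0.88 on the log2 scale, against -0.03 over all tested regions. The edgeR test called 0 of them. An unadjusted p below 0.05 was reached by 4 of the 13, against 5.83% of all tested regions. Isl1CKO measured lower without overlap in 6, against 19.4% of all tested regions, and higher without overlap in 0, against 18.1%. The shares run over all regions, strong and weak, while each listed gene is read by its region with the most counts. The 2 are therefore not like for like. Leaving out Control replicate 2, the median was -0.36, with 11 lower. On the authors' implied sizes it was -0.25, with 7 lower and 6 higher, where the median of all regions was 0.61.

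Abcc8 and Kcnj11, the subunits of the ATP-sensitive potassium channel that couples glucose to insulin release, are both on that list. Abcc8 had the smallest p, with 17 and 40 counts in Isl1CKO, against 125 and 158 in Control. Its log2 fold change was -1.75 (SE 0.45, edgeR adjusted p = 0.838). Glp1r, the receptor of the incretin GLP-1, held 43 and 45 counts in Isl1CKO, against 116 and 237 in Control, with a log2 fold change of -1.22 (SE 0.44, edgeR adjusted p = 0.846). Ccnd2, a cyclin of beta cell growth, and Slc30a8, the zinc transporter of insulin granules, were the 2 that measured higher, at 0.27 and 0.85.

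Of the regulators of Mafa in beta cells, 3 measured lower and 7 higher for H3K27ac out of 10 tested, with a median of 0.16, and edgeR called 0. Leaving out Control replicate 2, 5 measured lower and 5 higher, with a median of 0.089. On the authors' implied sizes the median was 0.87, where that of all regions was 0.61, and 10 of 10 measured higher. The thyroid hormone receptor gene Thrb had the smallest p, at 134 ± 15.2 CPM in Isl1CKO and 71.3 ± 14.6 CPM in Control (SD, n = 2 each), and a log2 fold change of 0.90 (SE 0.35, edgeR adjusted p = 0.850). The homeobox gene Nkx6-1 came next at 0.27 (SE 0.32). At P9, 6 of the 12 ISL1 windows of this list had a value of at least 1, and at E14.5 12 of 12 did, with Isl1 itself the highest at 9. Of the 14 windows of the genes tied to MAFA, 0 did at P9 and 7 at E14.5. Over all windows the shares were 8.86% at P9 and 37.7% at E14.5.

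The small Maf proteins lack an activation domain and pair with the CNC factors, whose list measured lower at 2 and higher at 6 of 8 tested genes for H3K27ac, with a median of 0.25. The edgeR test called 0. The median was 0.097 leaving out Isl1CKO replicate 1, and 0.98 on the authors' implied sizes, where that of all regions was 0.61. The CNC factor gene Bach2 measured 84.8 ± 2.69 CPM in Isl1CKO and 37.1 ± 15.2 CPM in Control (SD, n = 2 each), a log2 fold change of 1.20 (SE 0.46, edgeR adjusted p = 0.850). Nfe2l3, another CNC factor, stood at -1.92 (SE 0.99). The lens and photoreceptor genes tied to MAF and NRL had H3K27ac regions at 2 of 14 genes, Prox1 (-0.17) and Rorb (-0.07), and edgeR called 0 of them. They had H3K27me3 regions at 7, with a median of -0.10, which was 0.15 leaving out Control replicate 2. Sox1, a factor of lens and neural tissue, measured 348 ± 35.2 CPM of H3K27me3 in Isl1CKO and 448 ± 106 CPM in Control (SD, n = 2 each), for a log2 fold change of -0.36 (SE 0.20), and Prox1, a homeobox gene of lens fibres, stood at 1.13.

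H3K27me3 lay at fewer of the genes in the other lists, and edgeR called 0 of each. The 6 genes tied to MAFA with a region had a median of -0.03, with Slc2a2, the glucose transporter gene, at -0.97 (SE 1.08) and Abcc8 at 0.95 (SE 1.06). Slc2a2 held 38 and 4 counts in Isl1CKO, against 18 and 33 in Control. Abcc8 held 72 and 125 counts in Isl1CKO, against 50 and 1 in Control. At each of these genes the groups overlapped. The 4 regulators had a median of 0.84, with Nkx6-1 at -1.65 (SE 0.82) and Isl1 at 1.34 (SE 1.16), both at distal regions. Nkx6-1 held 40 and 60 counts in Isl1CKO, against 13 and 207 in Control. Isl1 held 9 and 71 counts in Isl1CKO, against 5 and 15 in Control. The groups overlapped at both genes. The median of the regulators turned to -1.38, with 0 of 4 higher, leaving out Isl1CKO replicate 2. The 1 small Maf or CNC gene tested, Nfe2l3, stood at -0.39, and at 0.061 leaving out Control replicate 1. The median of the genes tied to MAFA also changed sign between libraries left out, at -0.22 without Isl1CKO replicate 2 and 0.24 without Isl1CKO replicate 1.

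**Figure D5:**
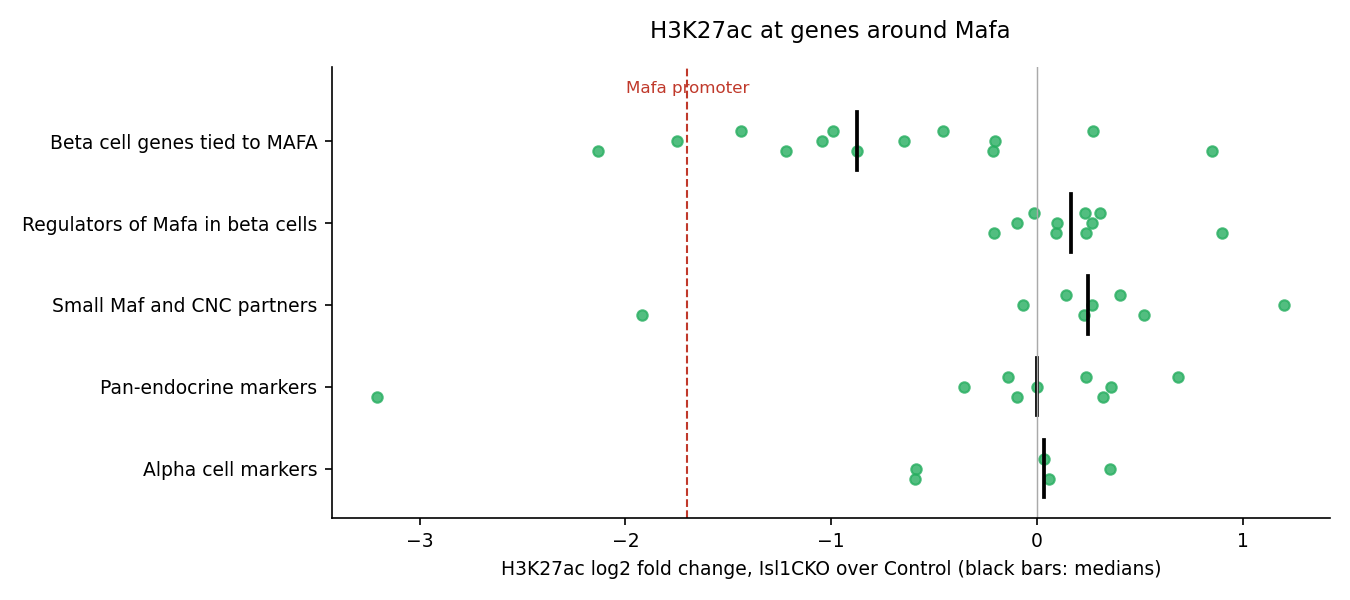
H3K27ac log2 fold changes of Isl1CKO over Control for the genes of 5 lists (1 point per gene, black bars at the medians), with the Mafa promoter as a dashed red line. The median is -0.88 for the beta cell genes tied to MAFA, 0.16 for the regulators of Mafa and 0.25 for the small Maf and CNC genes.

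Markers of endocrine and other cells gave the background of the sort. The edgeR test called 0 in each of these lists, for both marks. All 9 pan-endocrine markers had an H3K27ac region, with summed levels of 732 to 767 CPM in Isl1CKO, against 628 to 840 CPM in Control. For the 5 of 8 alpha cell markers with a region, sums ran from 75.2 to 95.9 CPM in Isl1CKO, against 68.0 to 126 CPM in Control, and for the 3 of 5 delta cell markers from 95.9 to 103 CPM in Isl1CKO, against 81.7 to 140 CPM in Control. The hormone genes Gcg and Sst had no listed H3K27ac region, so neither list rests on its defining hormone. Acinar markers (3 of 8) summed to 234 to 239 CPM in Isl1CKO, against 232 to 303 CPM in Control, and duct markers (4 of 6) to 101 to 161 CPM in Isl1CKO, against 121 to 135 CPM in Control. Endothelial markers (2 of 7) summed to 18.3 to 34.4 CPM in Isl1CKO, against 23.2 to 84.4 CPM in Control, with the defining gene Cdh5 not listed. Mesenchymal markers (1 of 6) stood at 16.9 to 22.8 CPM in Isl1CKO, against 11.6 to 33.4 CPM in Control, with Pdgfra not listed. Immune markers (1 of 7) stood at 16.7 to 29.5 CPM in Isl1CKO, against 30.2 to 40.9 CPM in Control, with Ptprc not listed. Neuron and glia markers (4 of 7) summed to 136 to 141 CPM in Isl1CKO, against 116 to 125 CPM in Control. The immune value, from the single gene Spi1, was lower in Isl1CKO without overlap, as in 19.4% of all tested H3K27ac regions. The neuron and glia sum was higher without overlap. That held in 18.1% of single tested regions, a share not computed for sums. Of the 4 genes in that sum, 2 were higher without overlap and 1 was lower without overlap. Median H3K27ac log2 fold changes were -0.85 for the duct markers, with Sox9 at -1.77 and Krt19 at -2.41 (both lower without overlap), and -1.10 for the endothelial markers, against -0.88 for the genes tied to MAFA. The medians were -0.58 for immune, -0.31 for delta cell, -0.21 for mesenchymal, 0.000794 for pan-endocrine, 0.034 for alpha cell, 0.057 for acinar and 0.23 for neuron and glia markers. The part of these cell types in the Mafa values was not tested. Single markers with an unadjusted edgeR p below 0.05 for H3K27ac were the acinar gene Cpa1 (-1.98), the delta cell genes Ghsr (-3.22) and Cacna2d3 (2.35) and the pan-endocrine gene Scg2 (-3.21), on the log2 scale. Over all tested H3K27ac regions, 5.83% passed that threshold. Ghsr rests on 1 and 4 counts in Isl1CKO, Scg2 on 0 and 7 in Isl1CKO, and Cacna2d3 on 7 and 12 in Control. Cpa1, Ghsr and Scg2 were read by distal regions. For H3K27me3 the single marker below that threshold was the mesenchymal gene Pdgfra (-0.42), and DESeq2 called 1 mesenchymal marker. The H3K27me3 lists' median log2 fold changes ran from -0.66 for 3 duct markers to 1.54 for 1 pan-endocrine marker, Pax6. The Pax6 value rests on a single library, with 0 and 58 counts in Isl1CKO, against 7 and 4 in Control.

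The genes most like each member were found by the distance between log2 CPM values of their strongest promoter regions. For Mafa this ran over 8 libraries and 1432 genes with a promoter region of both marks. The nearest were Gm44780, at a distance of 1.60, Pou3f1, a POU factor of neural and glial cells, at 1.75, and Egr4, a zinc finger factor induced by activity, at 1.78. Comp, a cartilage matrix gene, followed at 1.88 and Ihh, a hedgehog ligand, at 1.97, where the median over all genes was 9.27. Egr4 measured 9.07 ± 2.07 CPM of H3K27ac in Isl1CKO and 50.9 ± 19.5 CPM in Control (SD, n = 2 each). Its H3K27me3 measured 406 ± 63.9 CPM in Isl1CKO and 520 ± 191 CPM in Control. Mean H3K27ac in Isl1CKO, against Control, was 18.7 against 61.7 CPM at Gm44780 and 14.2 against 20.0 CPM at Pou3f1. It was 12.8 against 18.0 CPM at Comp and 11.6 against 18.1 CPM at Ihh. These genes were picked on the same values, so some likeness to Mafa is built in. Maf and Nrl, with promoter regions of H3K27me3 alone, were compared over 4 libraries and 4941 genes. Nhlh1, a neural basic helix-loop-helix factor, was nearest to Maf at 0.153, followed by Gm56640, Cerox1, Dzip1 and Ush1g at 0.294 to 0.403, with a median of 4.13. Among the genes near Nrl were Sh3rf3, Gm42064, Cnrip1 and Gm47120 at 0.439 to 0.520, with a median of 4.17. With so few libraries these distances describe level and pattern together.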

How the data were processed

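Reads were processed by the authors. Per the submitters' processing notes, the build was GRCm39. Tools named there are edgeR 4.0.16, ChIPseeker 1.38.0, Bowtie2 2.3.5.1, MACS2 2.2.6 and Picard 2.27.4. For each histone library, the authors deposited raw counts by region. Beside them, per the file headers, stood the authors' log2 fold changes and log2 mean abundances, likelihood ratio scores, p-values and adjusted p-values. The ISL1 table holds whole numbers per window, whose unit is not given in the sources used here. Columns of per-sample values left unused numbered 0.

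Chromosome labels of the histone tables followed the alphabetical order of names, so 7.47% of H3K27ac and 9.23% of H3K27me3 labels matched the ISL1 table as written and 100% after relabelling. After removal of 108 and 90 repeated regions, filterByExpr left 30036 H3K27ac and 19434 H3K27me3 regions. Counts were tested with edgeR 4.0.16 in R 4.3.3 (TMM factors, quasi-likelihood test, genotype alone, 2 against 2 libraries), and again as sums per gene and region class. Each standard error is the fold change divided by the root of the F statistic. The script was tested on simulated data with a fixed spread between libraries, which is no measure of its power on these data. Listed regions hold at least 50 counts over the 4 libraries. A promoter is any region annotated within 3 kb of a gene start. Alternatives were DESeq2 1.42.0, other scalings, loess offsets, no filter, a replicate block and each library left out. Leaving out a library kept the regions of the full filter. Distances between genes used log2 CPM with a prior count of 2.

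All regions, sums and windows of the 3 genes are named. Of each list, members called were to be named, or the 2 with the smallest p where none was, and the 5 genes nearest to each member, of which 1 is not reported here. Marker lists of cell types are given as sums, and by name where an unadjusted p was below 0.05. Kcnj11, Ccnd2 and Slc30a8 were named after their values were seen, as were Pax6, Sox9, Krt19, Spi1 and the intronic Isl1 region. The members and lists were chosen with earlier results of these data known.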

Additional observations from a re-analysis of the deposited data

How the results depend on the processing

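Calls over all features depended on the setting. The edgeR count of called H3K27ac regions was 0, and 3 on the authors' implied sizes; DESeq2 called 29. Leaving out 1 library at a time it was 0 to 900, 900 being the fit without Control replicate 1, against 15 calls without Control replicate 2. The count of H3K27ac gene sums was 0, 1 on the implied sizes, 1 with loess offsets and 73 by DESeq2. Leaving out 1 library it was 0 to 1173, with 32 without Control replicate 2. DESeq2 called 147 H3K27me3 regions, of 1784 it gave an adjusted p, where every edgeR alternative called 0. It called 21 H3K27me3 gene sums, and leaving out 1 library edgeR called 0 to 211, with 211 without Control replicate 1. A lone library of a genotype was assumed to vary like the other genotype. The cause of these shifts was not tested.

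Replicate numbers are shared between genotypes in the labels, which do not say whether they pair the libraries. Differences between replicates correlated between genotypes at 0.05 for H3K27ac and -0.01 for H3K27me3, with 2 pairs each. With so few libraries, these values cannot settle whether libraries were paired. The replicate block gave 55 calls among H3K27ac gene sums and 0 in the other edgeR fits, and changed no call of a member.

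Of 12 tested regions, 6 kept their sign under each of 11 alternatives, and 4 of 9 gene sums did, both Mafa H3K27ac regions and sums among them. Each of these Mafa sums holds 1 region, so it is the same evidence as that region. The Nrl H3K27ac region, at -0.34, was 0.10 on the implied sizes and -1.34 to 0.17 leaving out 1 library; its gene sum was 0.10, and -1.34 to 0.17. The Nrl H3K27me3 3′ UTR region, at 0.24, was -0.49 on the implied sizes and -2.15 to 2.34 leaving out 1 library; its sum was -0.49, -0.049 with loess offsets and -2.10 to 2.38. The Mafa H3K27me3 domain was 0.0054 with loess offsets and -0.43 to 0.034 leaving out 1 library, and its sum -0.39 to 0.074. The distal Mafa H3K27me3 region was -0.70 to 0.037, and its sum -0.66 to 0.076. The Maf H3K27me3 region at -2080 bp was -0.20 on the implied sizes. The region at -45396 bp, at 0.76, was -0.079 with loess offsets and -2.39 to 2.17 leaving out 1 library. The Nrl H3K27me3 promoter sum was -0.35 to 0.060. The cause of these reversals was not tested.

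Counting ISL1 windows at a value of at least 5 gave 0 of the members at P9, against 1 at a value of at least 1, and 1 at E14.5, against 2. Each of the 3 H3K27ac regions still shared bases when 50% of its length had to be shared. The medians of gene lists leaving out Control replicate 2, or on the implied sizes, were added after the data were seen. Depth limited the distal Mafa H3K27ac region, at 1 and 0 counts in Isl1CKO, and the Nrl and upstream Maf H3K27me3 regions, where some libraries held 0 to 5 counts.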
